A study of Mus musculus with 21 samples.

Results

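A divergent promoter is the stretch between 2 genes that are read away from each other, one on the minus strand and one on the plus strand. Such pairs were taken from the mouse gene table of the series: both genes protein-coding, on 1 chromosome, with the start of the plus-strand gene 0 to 1000 bp above the start of the minus-strand gene. The rule found 851 pairs, which hold 1695 of the 22002 protein-coding genes, and 7 of these genes stand in 2 pairs. The starts lay a median of 110 bp apart, with quartiles of 56 and 234 bp. The pair that usually stands for this arrangement, Hspd1/Hspe1, which encodes the mitochondrial chaperonin Hsp60 and its co-chaperonin Hsp10, did not meet the rule: in this table the 2 genes overlap by 69 bp at their starts, as did 332 head-to-head pairs in all. Its values are given as a reference and it is counted among no members. At the edges of the rule, Mthfd2/Mob1a had starts 0 bp apart and Tbc1d10c/Ppp1ca 979 bp apart, while just outside it Orc3/Rars2 overlapped by 1 bp and Myd88/Acaa1a lay 1012 bp apart. On 1 chromosome 9 pairs were counted throughout and are not named.

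A shared window of this kind is usually rich in CpG, often without a TATA box, and offers 1 open stretch of chromatin to polymerases that leave in opposite directions. Genes for housekeeping functions, DNA repair and the mitochondrion are common among such pairs. HSF1 binds inverted repeats of the sequence GAA, heat shock elements, and c-MYC with its partner MAX binds the E-box CACGTG, both often within promoters. A factor bound between 2 starts could act on either gene, so each pair poses the question whether its genes respond together.

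The series used immortalized mouse embryonic fibroblasts. For RNA, lines with stable LacZ, or with GCN5 (the Kat2a acetyltransferase) carrying a V5 tag, were transfected for 2 days with 10 nM of control siRNA or of siRNA against Hsf1, with 3 libraries in each of the 4 groups. The promoter driving either transgene and the number of clones behind each line were not given in the sources used here, and the labels do not say that the 3 libraries came from separate cultures, so p-values measure the spread between these libraries only. For c-MYC binding, CUT&RUN, which releases antibody-bound DNA with a tethered nuclease, compared Hsf1 WT cells after 7 days of ethanol with Hsf1 CKO cells after 7 days of 4-hydroxytamoxifen (4-OHT). Each genotype had 2 replicates, with 1 immunoglobulin control from mixed cells, and 1 peak list for each genotype was at hand. The agent and the deletion cannot be told apart in these lists, because no group received 4-OHT without the deletion.

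Gene counts summed to between 7224496 and 8162787 in the LacZ libraries and between 3693554 and 4274852 in the GCN5 libraries. Of the 1695 genes in divergent pairs, 1378 (81.3%) passed the filter on low counts, against 47.8% of the other protein-coding genes. Both genes passed in 606 pairs, 1 gene in 173 and neither in 72. The 6 fibroblast markers examined were above 0 in every group, with summed CPM (counts scaled to a common library total) of 6067 to 6848 in siControl LacZ libraries and 8735 to 10141 after siHsf1 in that line; in the GCN5 line the ranges were 7756 to 7962 and 8041 to 8239. Of 8 haematopoietic markers, 5 or 6 were at 0 in each group, and the summed CPM of all 8 was 6.69 to 8.65 (LacZ, siControl), 12 to 14.3 (LacZ, siHsf1), 5.41 to 6.63 (GCN5, siControl) and 4.56 to 6.32 (GCN5, siHsf1). The part of either shift in the results below was not tested.

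Promoters of genes in divergent pairs differed in sequence from other promoters in the RefSeq promoter table for GRCm38.p6. That table holds 250 bases before and 50 after a gene's start. With a median window of 110 bp these bases often reach into the partner gene, so they are not the windows themselves. The RefSeq table matched 679 genes of divergent pairs, and 8132 other genes. Median GC content was 62.0% in divergent and 53.0% in other promoters. The ratio of observed to expected CpG was 0.851 and 0.400. Among promoters of genes that passed the count filter the gap was smaller, 0.868 against 0.763. On both strands, CCGGAAG, the core bound by ETS factors, was found in 30.6% of divergent and 8.61% of other promoters, and in 10.7% of all 9062. Among tested genes these shares were 33.4% and 17.1%. The E-box CACGTG was in 10.3% and 6.92% (7.29% of all), CCAAT, the site of NF-Y, in 44.3% and 40.6% (40.6% of all), and TATAAA in 5.74% and 17.8% (16.6% of all). The run of 3 joined heat shock units, GAANNTTCNNGAA, stood in 1.03% of divergent and 0.516% of other promoters (0.552% of all). Among tested genes the E-box shares were 11% and 10.7%, those of CCAAT 42.2% and 42.6%, of TATAAA 3.48% and 7.96%, and of GAANNTTCNNGAA 0.697% and 0.389%. These motifs can overlap each other, and a match describes letters only.

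These 7 windows are printed for the results that follow, 5′ to 3′ on the stated strand of GRCm38.p6 from RefSeq; each runs from 30 bases inside one gene to 30 bases inside the other, except the first. Capitals mark the motif named with each. The Hspe1 line shows the 4-unit heat shock element TTCNNGAANNTTCNNGAA of the reference pair with 6 bases on each side, chr1:55088053-55088082, plus strand, beginning 89 bases before the Hspe1 start. The Timm9 line shows GAANNTTCNNGAA in reverse, 202 bases before the Timm9 start (chr12:71136646-71136878, minus strand). This pair is one of 6 found to hold it among the matched promoters, and was chosen after its values were seen. Cnppd1/Fam134a (chr1:75142703-75142815, plus strand) is shown for 2 E-boxes at 70 and 50 bases before the Fam134a start, in a pair whose genes passed as higher by TMM only. The one at 70 bases lies inside Cnppd1, beyond the window of 53 bp. Sirt3/Psmd13 (chr7:140882279-140882423, plus strand) and Emc3/Fancd2 (chr6:113531609-113531691, minus strand) show the ETS core at 6 bases before the Psmd13 start and 5 before the Emc3 start. Hmmr/Nudcd2 (chr11:40733433-40733690, plus strand), which fell together, carries CCAAT 5 times, at 208, 181, 132, 99 and 56 bases before the Nudcd2 start. The one at 208 bases lies inside Hmmr, beyond the window of 198 bp. Tsacc/Cct3 (chr3:88296979-88297164, plus strand), under the highest WT peak, carries it in reverse at 74 and 33 bases before the Cct3 start.
Hspd1/Hspe1: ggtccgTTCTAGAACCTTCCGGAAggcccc
Timm9/2700049A03Rik: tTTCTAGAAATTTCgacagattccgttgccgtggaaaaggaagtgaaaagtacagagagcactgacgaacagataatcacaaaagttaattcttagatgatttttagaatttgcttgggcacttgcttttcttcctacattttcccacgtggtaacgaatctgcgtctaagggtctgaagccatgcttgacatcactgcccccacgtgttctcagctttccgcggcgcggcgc
Cnppd1/Fam134a: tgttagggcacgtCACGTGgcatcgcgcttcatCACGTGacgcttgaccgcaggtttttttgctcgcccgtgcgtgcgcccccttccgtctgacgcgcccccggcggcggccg
Sirt3/Psmd13: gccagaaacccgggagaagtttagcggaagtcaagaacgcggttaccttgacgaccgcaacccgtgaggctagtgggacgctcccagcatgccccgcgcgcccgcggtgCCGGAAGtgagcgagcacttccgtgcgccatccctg
Emc3/Fancd2: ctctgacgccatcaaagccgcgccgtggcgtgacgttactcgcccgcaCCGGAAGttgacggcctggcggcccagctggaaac
Hmmr/Nudcd2: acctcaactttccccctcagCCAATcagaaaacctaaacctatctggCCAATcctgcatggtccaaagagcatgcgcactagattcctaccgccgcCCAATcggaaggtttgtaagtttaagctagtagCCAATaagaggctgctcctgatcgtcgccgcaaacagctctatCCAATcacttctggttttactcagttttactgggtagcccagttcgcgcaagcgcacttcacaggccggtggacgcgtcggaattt
Tsacc/Cct3: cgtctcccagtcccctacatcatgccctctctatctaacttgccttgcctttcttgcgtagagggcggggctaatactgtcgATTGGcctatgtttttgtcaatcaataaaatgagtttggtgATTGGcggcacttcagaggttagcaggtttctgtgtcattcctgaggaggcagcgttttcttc

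Peaks of c-MYC lay over most divergent windows. In the Hsf1 WT list 679 of 851 windows (79.8%) were overlapped by at least 1 bp of a peak, and in the Hsf1 CKO list 418 (49.1%). Both lists had a peak in 404 windows, the WT list alone in 275, the CKO list alone in 14 and neither in 158. Single starts of other protein-coding genes, given a window of the median width of 110 bp, were overlapped in 44.8% (WT) and 14.3% (CKO) of 19646 cases. The lists differ in size: 220037 WT peaks covered 510 Mb, and 6386 CKO peaks covered 11.5 Mb. Of the CKO list 6.50% of peaks lay in divergent windows, and of the WT list 0.305%. With 1 list per genotype, these shares have no replicate check.

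The share with a peak rose with expression, and was higher in divergent windows than at other starts in each class of level. Levels are the mean FPKM (a level corrected for gene length and library depth) of the higher gene in siControl LacZ. Under 1 FPKM, 47.4% of 95 windows had a WT peak (Wilson 95% interval 37.6 to 57.3%), against 25.7% of other starts (25 to 26.6%). From 5 to 20 FPKM the shares were 82.8% (77.9 to 86.8%) and 71.3% (69.7 to 72.8%). Over 50 FPKM they were 87.6% (82.1 to 91.6%) and 83.1% (80.9 to 85.2%), and the intervals overlap there and from 20 to 50 FPKM. In the CKO list the intervals were apart at every level: 16.8% (10.6 to 25.6%) against 1.71% (1.49 to 1.96%) under 1 FPKM, 47.1% (41.3 to 53.0%) against 29.9% (28.4 to 31.5%) from 5 to 20, and 67.2% (60.2 to 73.5%) against 50.1% (47.2 to 52.9%) over 50. The higher of 2 genes is a maximum over a pair while an other start has 1 gene, so the match by level is not exact. The intervals cover counting error only and take windows as independent within 1 list, so their overlap or separation is no test. CpG content was not matched.

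**Figure D1:**
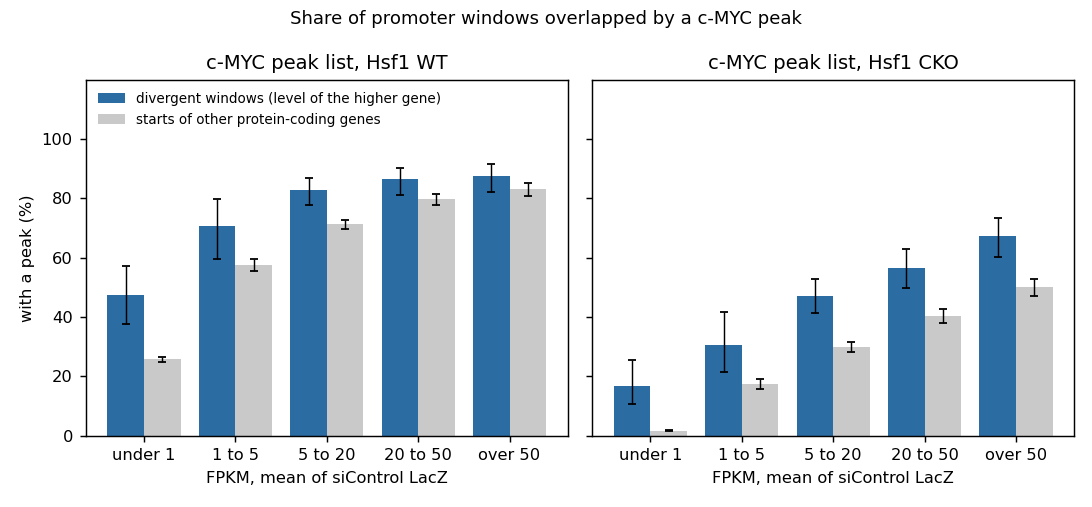
Share of windows overlapped by a c-MYC peak (%, from 0) by mean FPKM in siControl LacZ, for divergent windows (blue, by the higher gene) and starts of other protein-coding genes (grey), in the Hsf1 WT and Hsf1 CKO lists; bars are shares and lines are Wilson 95% intervals. In the CKO list the divergent windows reach 67.2% over 50 FPKM where other starts reach 50.1%.

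Peak maxima lay about equally often on the side of either gene, and many lay outside the window itself. The maximum of the overlapping peak lay within 250 bp of the window centre in 54.6% of WT and 65.1% of CKO cases. The median distance was 233 and 204 bp, where the median window is 110 bp wide. Only peaks that touch a window were taken, so some nearness is built in. It fell on the side of the minus-strand gene in 342 windows and of the plus-strand gene in 337 (WT), and in 204 and 214 (CKO). In the 404 shared windows, the authors' maximum signal was lower in the CKO list in 394, with medians of 0.00890 (WT) and 0.00469 (CKO) and a median ratio of 0.560. The 2 scales are not the same, however. All scores are whole multiples, within 0.01, of 0.000684 in the WT list and of 0.000361 in the CKO list, a ratio of 1.90. Counted in these steps, the shared windows had a median of 13.0 in both lists, and the CKO peak had fewer steps in 159, more in 212 and as many in 33. So which genotype had the higher peaks depends on the authors' scaling, whose steps were not given in the sources used here. Median peak widths were 3098.5 bp (WT) and 1711 bp (CKO). The rank of a window was largely shared (Spearman rho 0.697 over 404 windows, which share 1 genome and its mappability).

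**Figure D2:**
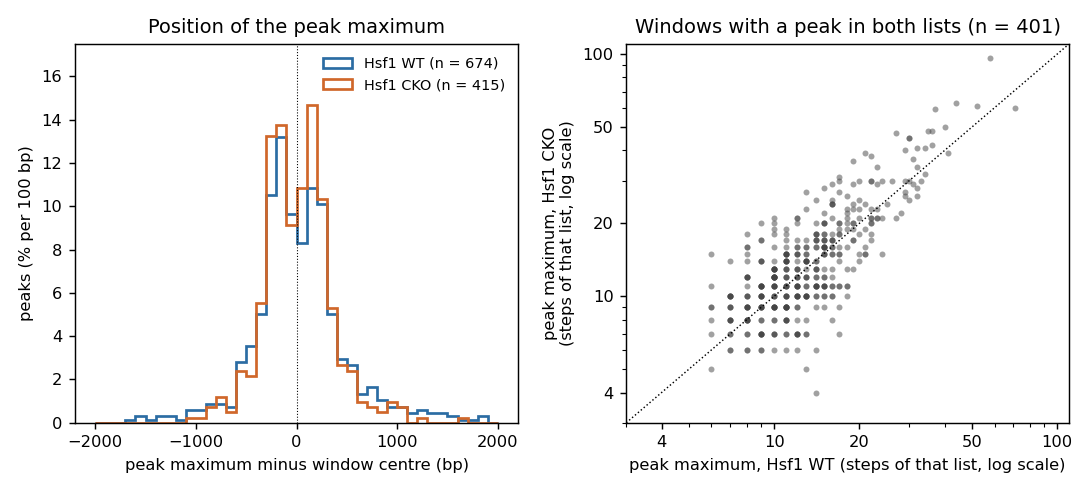
Left, distance from the window centre to the peak maximum (bp, 100 bp bins, % of peaks) for 674 WT and 415 CKO windows outside the unnamed chromosome, with 13 WT and 1 CKO values beyond the axis; right, peak maxima of 401 shared windows in steps of each list (log axes), with the line of equal steps. Maxima pile up around the centre on both sides, in part because only peaks that touch a window were taken. Shared windows scatter around equality.

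The 5 windows with the highest WT maxima held 4 of the 5 highest CKO maxima. Tsacc/Cct3, with the chaperonin subunit Cct3 and a testis co-chaperone gene, had a WT maximum of 0.0486 and a CKO maximum of 0.0216. Mttp/Trmt10a, a lipid transfer protein and a tRNA methyltransferase, had 0.0397 and 0.0346. Ttc13/Arv1 had 0.0356 and 0.0220, and Ftsj3/Psmc5, a preribosomal RNA methyltransferase and a proteasome ATPase, had 0.0301 and 0.0227. Eef1d/Tigd5 followed with 0.0281 and 0.0141, where Eef1d encodes an elongation factor subunit. Cbx5/Hnrnpa1, a heterochromatin protein and a splicing factor, had no WT peak in its window and the second highest CKO maximum, 0.0328; the nearest WT peak was 10158 bp away. Peak shares differed among chromosomes: on chromosome 15, 90.0% of 30 windows had a WT peak and 86.7% a CKO peak, and on chromosome 7, 59.7% and 26.4% of 72. Other tested starts on those chromosomes had 92.4% and 61.0%, and 43.7% and 18.6%.

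Before knockdown the 2 genes of a pair were not alike in level. The median fold between their FPKM values in siControl LacZ was 3.32 over 606 pairs, against 3.58 for neighbours in tandem and 3.93 for convergent ones. The correlation of log2 FPKM across the pairs was 0.125. Tsacc at 2.58 FPKM beside Cct3 at 400.1 shows how unequal the 2 directions of 1 window can be.

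Knockdown of Hsf1 in the LacZ line lowered Hsf1 itself, a member of the pair Bop1/Hsf1, from 128, 128 and 134 CPM to 57.6, 55.4 and 47.8. In the GCN5 line it went from 137, 121 and 138 to 67.9, 74.5 and 73.0. Reads of Kat2a, which do not separate the transgene from the gene itself, were 215, 215 and 220 CPM in siControl LacZ, 125, 117 and 130 after siHsf1, and with GCN5 262, 233 and 245, then 247, 252 and 244. CPM here are scaled by TMM, which assumes that most genes keep their share of the library. The main model instead scaled libraries by spike-in RNA present in equal amount in both spike mixes; this moved the median log2 change of all 12187 tested genes in the LacZ line to -0.35, from 0.02 by TMM, so spike-in changes are read against that shift. A lower total against spike-ins cannot be told apart as fewer cells or as less RNA per cell. By spike-in scaling, edgeR called 96 of 1378 genes of divergent pairs at an adjusted p below 0.05, 3 higher and 93 lower, or 6.97%; over all tested genes 7.02% were called, 0.993% higher and 6.03% lower. By TMM it called 575, with 216 higher and 359 lower, where 40.6% of all tested genes were called. The split differed: 15.7% of the genes in pairs were higher and 26.1% lower, against 21.1% and 19.5% of all tested genes. The spike-in count rested on single libraries, reaching 448 without siHsf1 LacZ replicate 1, 195 without siControl LacZ replicate 2, 61 without siControl GCN5 replicate 3, 64 without either siHsf1 GCN5 replicate 1 or 2, 37 without siControl LacZ replicate 3, 25 and 15 without siHsf1 LacZ replicates 2 and 3, and 17 without siControl LacZ replicate 1. By TMM it stayed between 501 and 562. The spike-in transcripts used for scaling took 0.143 to 0.362% of the counts of the LacZ libraries. In both LacZ groups this share was lowest in replicate 1 and highest in replicate 2, as in siControl GCN5 (0.199 and 0.300%). In siHsf1 GCN5 it was lowest in replicate 1 and highest in replicate 3. With a block on replicate number the spike-in count was 490 instead of 96.

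By spike-in scaling both genes passed in the same direction in 3 of 606 pairs (0.495%): Bop1/Hsf1 and Hmmr/Nudcd2 were called lower and Ifit1bl2/Ifit1 higher. Leaving out 1 library moved the count of 3 to 71 (siHsf1 LacZ replicate 1), to 14 (siControl LacZ replicate 2), to 0 (siControl LacZ replicates 1 and 3, siHsf1 LacZ replicates 2 and 3) and to 1 or 2 (each GCN5 library). Opposite calls were made in 0 pairs, 78 had 1 gene called and 525 none. The same-direction share by spike-in was 0.935% for overlapping starts and 0.690% for tandem neighbours. It was 0.401% for divergent neighbours over 1000 bp apart and 0.323% for convergent ones. By TMM 71 pairs (11.7%) passed in the same direction, 23 higher and 48 lower, 34 in opposite directions, 296 with 1 gene and 205 with none. Of the pairs with both genes called, 67.6% went the same way. That share was 62.9% for head-to-head pairs with overlapping starts, 54.0% for tandem neighbours, 52.0% for convergent ones and 51.5% for divergent neighbours with starts over 1000 bp apart. Across the 606 pairs the 2 log2 changes correlated with r = 0.179 by TMM (Spearman rho 0.145); the points share libraries and depth. The same r was 0.40 (rho 0.199) for overlapping starts, 0.15 (rho 0.070) for tandem and 0.02 (rho 0.012) for distant divergent neighbours. Distance within 1000 bp gave no steady order, with r of 0.25 up to 50 bp, 0.10 above that up to 100 bp, 0.26 up to 250 bp and 0.11 beyond.

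**Figure D3:**
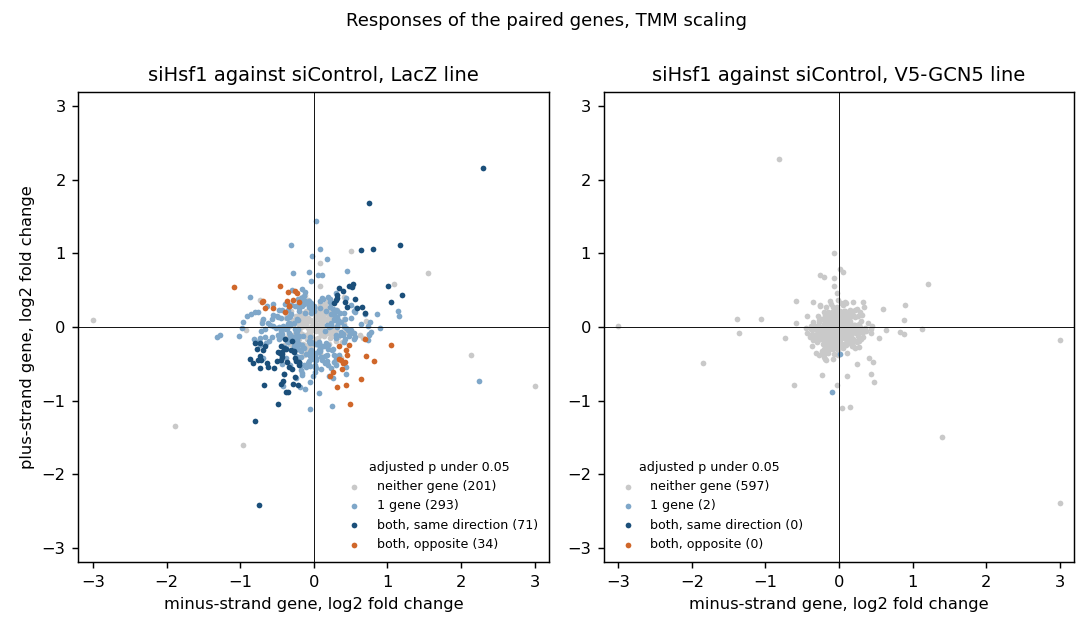
Log2 fold change of the plus-strand gene against that of the minus-strand gene for 599 pairs with both genes tested, outside the unnamed chromosome, in the LacZ (left) and GCN5 (right) lines by TMM scaling; colour gives which genes passed an adjusted p of 0.05, and 2 and 3 pairs are drawn at the edge. In the LacZ line 71 pairs are called in 1 direction and 34 in opposite directions, and in the GCN5 line no pair has both genes called.

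The window of the targeted gene was one of those where both genes fell. Bop1, a large-subunit ribosome biogenesis factor whose start lies 98 bp from that of Hsf1, went from 220, 235 and 236 CPM to 132, 140 and 124 in the LacZ line. The groups did not overlap, which the rule for naming pairs that fell together required. The change was -0.80 on the log2 scale (SE 0.06, adjusted p = 2.7e-10) by TMM and -1.17 (adjusted p = 0.0112) by spike-in; the latter call held in 8 of 12 fits that left out 1 library. Hsf1 fell by 1.28 (SE 0.08) by TMM and by 1.65 by spike-in, in 12 of 12 such fits. Hsf1 is the target of the siRNA, so its fall is the check of the knockdown. In the GCN5 line Bop1 had 247, 229 and 241 CPM against 214, 228 and 228, a change of -0.10 that did not pass (adjusted p = 0.613), while Hsf1 changed by -0.88 by TMM there (adjusted p = 8.2e-07), with no call by spike-in. The difference of the Bop1 response between the lines was 0.70 by TMM (adjusted p = 2.8e-06) but did not pass by spike-in scaling. The window held a WT peak of 0.0144 and a CKO peak of 0.00865.

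Hmmr and Nudcd2 fell by like amounts. Hmmr, a spindle-associated hyaluronan receptor, went from 146, 128 and 144 CPM to 86.5, 77.4 and 97.6 in the LacZ line. Nudcd2, of the NudC family, went from 74.8, 88.2 and 73.2 to 48.2, 42.0 and 46.6. In both genes all siHsf1 libraries lay below all siControl libraries, as the naming rule required. The log2 changes were -0.68 (SE 0.08) and -0.79 (SE 0.08) by TMM, with adjusted p of 1.4e-07 and 3.8e-08, and -1.05 and -1.12 by spike-in, with adjusted p of 0.0261 and 0.0165 (held in 5 and 8 of 12 fits without 1 library). The within-library ratio of the pair changed by -0.11 (SE 0.11, limma adjusted p = 0.506). In the GCN5 line Hmmr had 142, 133 and 143 CPM against 157, 146 and 148, and Nudcd2 78.8, 80.4 and 76.8 against 78.0, 73.0 and 77.0, with no call. The stretch printed above holds 5 CCAAT boxes, of which the one at 208 bases lies inside Hmmr, beyond the window of 198 bp. The peaks over the window reached 0.0103 (WT) and 0.00721 (CKO).

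Of the next pairs with both genes lower by TMM, taken by the size of their mean change, 3 are described, and in each only 1 gene also passed by spike-in. Nsun2, which methylates cytosines of tRNA, fell from 254, 262 and 254 to 126, 128 and 118 CPM, by 1.05 (SE 0.06) on the log2 scale by TMM, and Srd5a1, a steroid reductase, from 14.6, 12.6 and 15.6 to 10.6, 12.5 and 7.44. Kdelc1 changed by -0.87 and Bivm by -0.44. Reep6, an endoplasmic reticulum protein, dropped from 11.8, 12 and 15 to 1.93, 3.18 and 2.07 CPM, and Pcsk4 from 4.8, 5.43 and 5.94 to 3.31, 3.29 and 3.05. The TMM call of Pcsk4 held in 3 of 12 fits without 1 library. Reep6 was called by both scalings. Its level in siControl GCN5 was 5.39, 5.69 and 7.18 CPM, below siControl LacZ, and 6, 5.56 and 6.09 in siHsf1 GCN5.

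Ifit1bl2/Ifit1, interferon-induced genes of 1 family, was called as higher by both scalings in the fit to all libraries, but the spike-in call of Ifit1bl2 held in 0 of 12 fits without 1 library. Neither list had a peak in the window. Ifit1 went from 36.0, 43.8 and 45.3 to 182, 186 and 193 CPM, by 2.16 (SE 0.08) by TMM and 1.82 by spike-in, called in 12 of 12 fits without 1 library. Ifit1bl2 was near the limit of detection, at 0.824, 0.252 and 0.247 against 2.20, 2.23 and 2.19 CPM, so its fitted change of 2.30 (SE 0.49) by TMM is uncertain. It passed the count filter in 6 of the 12 fits, with a spike-in adjusted p of 0.0534 to 0.0707 and a TMM call in all 6; reads shared with near-identical family members cannot be told apart. In GCN5 cells Ifit1 had 32.6, 31.7 and 31.2 against 25.2, 28.6 and 30.4 CPM.

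The 6 pairs named for rising together passed by TMM only; by spike-in scaling none of their 12 genes passed. Mbd6, a methyl-CpG-binding domain protein, rose from 62.5, 55.5 and 69.6 to 140, 151 and 132 CPM, and Ddit3, the stress transcription factor CHOP, from 40.5, 54.0 and 43.7 to 88.0, 121 and 90.9. Their TMM changes were 1.18 (SE 0.08) and 1.12 (SE 0.12), the spike-in changes 0.78 and 0.73, and the ratio between them changed by -0.07 (adjusted p = 0.778). Ppp1r15a, which directs a phosphatase to the initiation factor eIF2, went from 56.1, 67.5 and 65.7 to 96.1, 135 and 101 CPM and its partner Plekha4 from 3.57, 2.27 and 2.97 to 7.85, 5.41 and 5.24. In these pairs the siHsf1 libraries all lay above the siControl ones, as the naming rule required. Cnppd1 went from 29.8, 30.4 and 32.5 to 58.4, 75.7 and 57.8 CPM, while Fam134a, of an ER-phagy receptor family, rose less, from 98.3, 111 and 99.4 to 124, 143 and 123, by 0.34 by TMM but -0.03 by spike-in. Dok1/Loxl3 (a kinase adaptor and a lysyl oxidase) changed by 0.64 and 1.04, Nhlrc3/Proser1 by 1.2 and 0.43, and the zinc finger genes Zkscan14/Zkscan5 by 1.00 and 0.56. None of these 12 genes passed in the GCN5 line by either scaling.

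**Figure D4:**
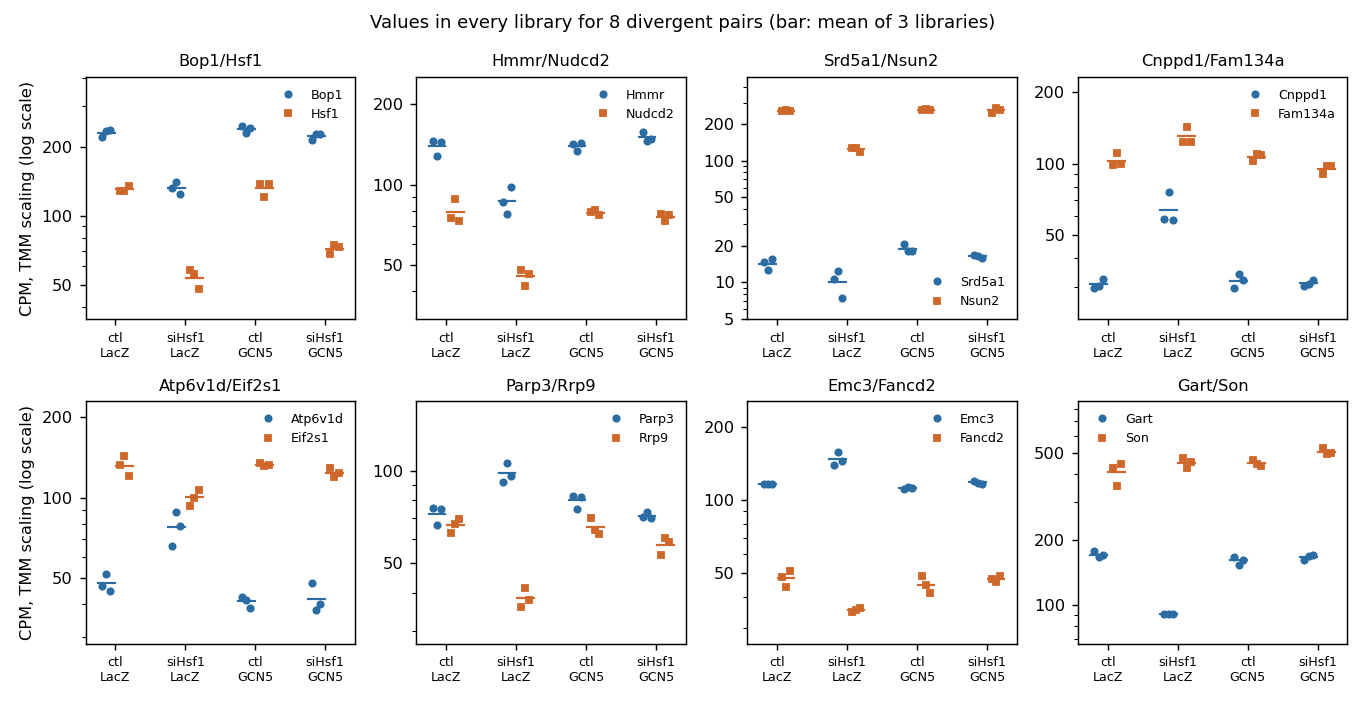
TMM-scaled CPM (log axes, each with its own range) of both genes of 8 pairs in every library of the 4 groups, with minus-strand genes as circles, plus-strand genes as squares and means of 3 libraries as bars. Hmmr and Nudcd2 fall in parallel in siHsf1 LacZ, whereas Atp6v1d and Eif2s1, Parp3 and Rrp9, and Gart and Son separate.

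The balance between the 2 genes shifted in about as large a share of divergent pairs as of other neighbours. The ratio of the 2 genes' counts within a library does not depend on how libraries are scaled, and limma on this ratio, over all 7260 neighbouring pairs, called 214 of 606 divergent pairs (35.3%) in the LacZ line; over all neighbouring pairs 37.2% were called. The plus-strand gene gained in 103 and the minus-strand gene in 111. The median size of the change was 0.311 on the log2 scale, against 0.358 over all neighbours. The ratio changed in 34 of 34 pairs with opposite TMM calls, 152 of 296 with 1 gene called, 19 of 71 with the same direction and 9 of 205 with none. Calls and ratios come from the same counts, so a changed ratio in pairs with opposite calls was all but fixed in advance.

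By TMM some windows had 1 gene lower and 1 higher, whereas by spike-in scaling 0 pairs had opposite calls. A changed ratio shows only that the 2 genes moved apart. The ratio of Rrp9, a U3 small nucleolar RNA protein, to Parp3, an ADP-ribosyltransferase of DNA repair, fell by 1.22 (SE 0.10, adjusted p = 3.2e-09). Rrp9 went from 62.6, 67.0 and 69.6 to 36.1, 41.6 and 38.0 CPM and Parp3 from 75.6, 66.6 and 75.1 to 91.9, 106 and 96.2. The ratio of Eif2s1, the alpha subunit of eIF2, to Atp6v1d, a vacuolar ATPase subunit, fell by 1.09 (SE 0.11), with 132, 143 and 121 against 93.4, 100 and 107 CPM for Eif2s1 and 46.7, 51.9 and 44.8 against 66.1, 88.7 and 78.6 for Atp6v1d. No siHsf1 library overlapped a siControl library in these 4 genes. Gart, an enzyme of purine synthesis, fell from 177, 167 and 170 to 91.3, 91.3 and 90.9 CPM beside Son, a splicing protein, at 430, 354 and 446 against 475, 430 and 454. Here the groups of Gart stood apart and those of Son overlapped, and the ratio of Son to Gart rose by 1.06 (SE 0.09).

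Other pairs that separated included Bzw2/Ankmy2, where Bzw2, a regulator of translation initiation, changed by -1.08 by TMM and -1.46 by spike-in, and Ankmy2 by 0.54 and 0.18; Ankmy2 passed by TMM only, and the ratio of Ankmy2 to Bzw2 rose by 1.63 (SE 0.16). The ratio of Itpa, an inosine triphosphatase, to Ddrgk1, an ER protein of ufmylation, fell by 1.14 (SE 0.10). The ratio of Tubg1, gamma-tubulin, to Fam134c fell by 0.85 (SE 0.08). In Emc3/Fancd2, whose starts lie 23 bp apart in the window printed above, Fancd2, of the Fanconi repair pathway, went from 48.3, 43.9 and 51.2 to 34.7, 35.4 and 36.2 CPM and the ER membrane complex gene Emc3 from 117, 117 and 116 to 140, 157 and 145. The ratio of Fancd2 to Emc3 fell by 0.76 (SE 0.11); the TMM change of Emc3, 0.34, was -0.05 by spike-in. In Pafah1b2/Sik3 and Larp7/Zgrf1 the plus-strand gene gained by 0.66 and 0.83. In the 34 opposite pairs, 0 of the genes that were higher by TMM passed by spike-in scaling.

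Of the 6 pairs described for the highest peaks, the ratio changed in 3: Ftsj3/Psmc5, Eef1d/Tigd5 and Cbx5/Hnrnpa1. It changed in 35.3% of all divergent and 37.2% of all neighbouring pairs, so 3 of 6 is not read as a trait of high peaks. Ftsj3 went from 305, 308 and 290 to 170, 174 and 175 CPM, by -0.80 by TMM and -1.17 by spike-in, while Psmc5 had 355, 415 and 362 against 307, 332 and 332, by -0.22 by TMM, and the ratio of Psmc5 to Ftsj3 rose by 0.58 (SE 0.07). The spike-in call of Ftsj3 held in 9 of 12 fits without 1 library, that of Trmt10a in 9, of Hnrnpa1 in 5 and of Eef1d in 4. Trmt10a changed by -0.80 by TMM and -1.2 by spike-in, both called, and Mttp by -0.41 by TMM, with no call for Mttp or for the ratio (adjusted p = 0.182). Eef1d went from 425, 489 and 415 to 280, 298 and 280 CPM and passed by both scalings, and Tigd5 did not pass. Hnrnpa1 went from 856, 941 and 830 to 565, 499 and 565 CPM and passed by both, beside Cbx5 at 804, 644 and 806 against 694, 529 and 679, whose groups overlap. Arv1 changed by 0.02 by TMM.

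Ribosomal protein and chaperone genes fell while the gene across the window mostly did not pass. These lists were made with earlier results of the data known, so their direction is no independent evidence. Of 81 genes for cytosolic ribosomal proteins 13 stand in divergent pairs, all tested: 9 passed as lower by spike-in scaling and 10 by TMM, with a median log2 change of -1.08 and -0.70 (all tested genes, -0.35 and 0.02). In the whole list of 77 tested genes 61 and 72 were lower. Of the 13, 12 have a tested partner, and there 9 were lower by TMM against 2 of the partners, whose median change was 0.06; 0 partners were higher. Among these 12 pairs 2 hold genes whose libraries within a group jump by more than 4-fold. In the other 10 the ribosomal gene changed further downward than its partner in 10. The ratio changed in 8 of these 10, where 37.2% of all neighbouring pairs changed. Rpl12 changed by -1.08 beside Lrsam1 at 0.24, and Rps25 by -1.12 beside Trappc4 at -0.05, all by TMM. Ribosomal protein genes have many processed pseudogenes, which can share reads with them.

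Of 34 cytosolic chaperone genes 8 stand in divergent pairs and 6 were tested, with 4 lower by spike-in and 5 by TMM; in the whole list of 31 tested genes 18 and 25 were lower. Partners passed as lower in 0 of 6 by spike-in and 2 of 6 by TMM. The ratio changed in 4 of 6, where 37.2% of all neighbouring pairs changed. Cct3, under the highest WT peak, fell from 779, 856 and 749 to 412, 431 and 433 CPM, by 0.90 (SE 0.06) by TMM and 1.27 by spike-in (adjusted p = 0.00450, held in 10 of 12 fits without 1 library). Tsacc, on the other side, had 2.06, 1.64 and 1.48 against 2.62, 1.76 and 1.10 CPM, and its groups overlapped; at these counts its ratio to Cct3 could not be called (adjusted p = 0.117). Ahsa1, an activator of Hsp90, fell from 121, 132 and 119 to 70.4, 69.3 and 68.4 CPM, beside Vipas39 at 23.9, 26.5 and 23.7 against 23.6, 23.6 and 21.1. The ratio of Ahsa1 to Vipas39 fell by 0.72 (SE 0.13, adjusted p = 0.00012).

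**Figure D5:**
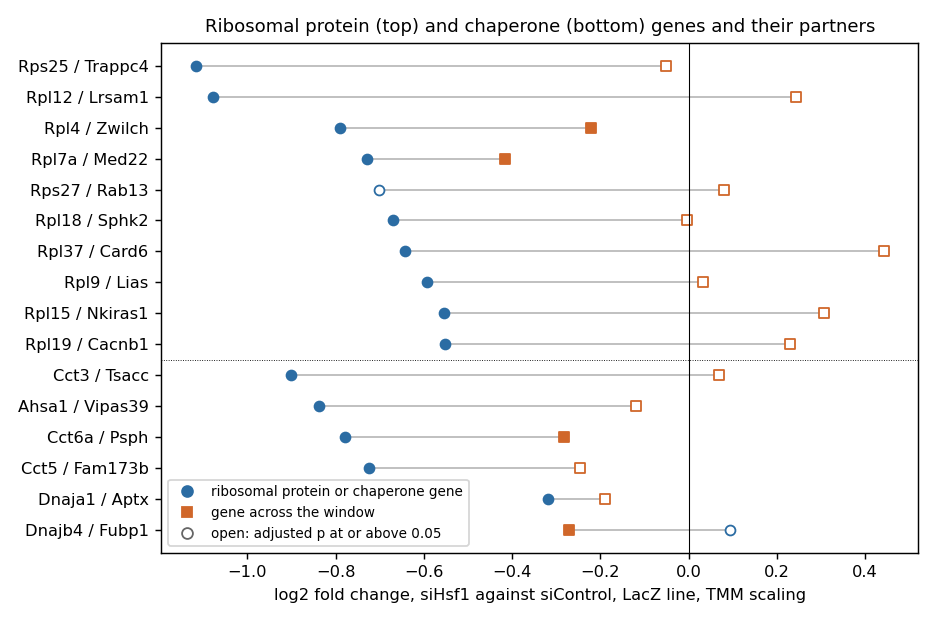
Log2 fold change (TMM scaling) in the LacZ line of 10 cytosolic ribosomal protein genes (top) and 6 cytosolic chaperone genes (bottom), as circles, each joined to the gene across its window, as squares; filled symbols passed an adjusted p of 0.05, and 2 ribosomal pairs with unsteady genes are left out. The ribosomal protein gene lies left of its partner in each of the 10 pairs shown.

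Of all tested genes 6.03% were lower by spike-in, and 21.1% higher and 19.5% lower by TMM, and the other lists are read against these shares. In them, 35 tested genes of DNA replication and repair stand in pairs, with 2 lower by spike-in and, by TMM, 1 higher and 9 lower; in the whole list of 92 tested genes 6 were lower by spike-in, and 4 higher and 26 lower by TMM. Their 33 tested partners had 14 higher and 8 lower by TMM, and in 4 pairs a lower repair gene faced a higher partner: Chek2/Hscb, Fancd2/Emc3, Apex1/Osgep and Fancb/Mospd2. Chek2, a checkpoint kinase, went from 29.8, 27.0 and 28.3 to 17.2, 18.1 and 16.9 CPM, while Hscb, a mitochondrial iron-sulphur co-chaperone whose start lies 1 bp away, had 8.24, 6.44 and 7.79 against 10.6, 12.7 and 11.7. Of 21 mitochondrial ribosomal protein genes 2 were lower by spike-in and 9 by TMM, and in the whole list 3 and 30 of 75. Of 29 respiratory chain genes 1 and 8 were lower, and in the whole list 3 and 23 of 94. Of 19 zinc finger genes 7 were higher and 1 lower by TMM and none passed by spike-in; in the whole list of 300 tested genes 97 were higher and 10 lower by TMM. Only 2 of 26 histone genes in pairs passed the filter, so the 13 histone pairs could not be judged.

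The windows most often described for divergent transcription gave no single pattern. By TMM, the flap endonuclease gene Fen1 changed by 0.04 and Tmem258 by -0.16, with no call. Atm, a DNA damage kinase, changed by 0.00 and Npat, a histone gene activator, by 0.29, which passed by TMM but was -0.08 by spike-in. Mcm4, a replicative helicase subunit, passed at 0.15 by TMM (-0.23 by spike-in), a call that held in 4 of 12 fits without 1 library, beside the DNA-dependent kinase Prkdc at -0.05. Psmd13, a proteasome subunit, passed by TMM at -0.24 beside the deacetylase Sirt3 at 0.08, and Mrps12 at -0.36 beside Sars2 at -0.19. Of 16 such pairs looked up, 8 were members and 8, the reference pair included, overlap at their starts. In the reference pair, Hspd1 fell from 897, 997 and 950 CPM to 384, 347 and 391, and Hspe1 from 202, 233 and 185 to 101, 111 and 116. Their log2 changes were -1.34 (SE 0.06) and -0.92 (SE 0.08) by TMM and -1.68 and -1.29 by spike-in, so the 2 chaperonin genes fell together but not equally: the ratio of Hspe1 to Hspd1 rose by 0.43 (SE 0.09, adjusted p = 0.00088). With GCN5, Hspd1 had 984 ± 21.1 and 912 ± 9.27 CPM (SD, n = 3) and Hspe1 210.4 ± 16.9 and 169 ± 10.1, with no call.

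Heat shock elements of 3 joined units were found in the promoters of 6 divergent pairs. Only 679 of the 1695 genes had a matched promoter, so further pairs may hold one. In Timm9/2700049A03Rik, Timm9, of the mitochondrial import machinery, went from 26.4, 30.7 and 24.4 to 19.1, 15.6 and 18.2 CPM, without overlap. By edgeR, Timm9 changed by -0.62 (SE 0.12, adjusted p = 0.00014) by TMM and -0.95 by spike-in (adjusted p = 0.0518, no call). Its partner had 22.0, 16.9 and 13.9 against 19.4, 16.9 and 18.4, and the ratio changed by 0.69 (SE 0.17, adjusted p = 0.00232). Seen from Timm9, the printed element lies beyond the partner's start. Coa3 and Jmjd6, in 2 further pairs, changed by -0.22 and -0.27 by TMM and passed there only, Eme2/Mrps34 had no call, and Hist1h2bc passed as higher by TMM at 0.25 but was -0.11 by spike-in. The histone pair Hist1h2bf/Hist1h2ad was not tested.

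Responses differed with the peaks in the window, as they did at other starts. By TMM, genes of the 339 pairs with a peak in both lists had a median change of -0.07, with 14.6% higher and 31.9% lower. With a WT peak only (185 pairs) the median was -0.01, with 15.1% and 21.9%, and with neither (70 pairs) 0.08, with 20.0% and 11.4%. Other tested starts had 20.7% and 29.7%, 25.1% and 15.3%, and 24.5% and 13.3% in the same classes. By spike-in scaling 8.70%, 4.05% and 2.86% of the pairs' genes were lower, against 9.18%, 4.29% and 3.89% of other starts. In the 12 pairs with a CKO peak only, 12.5% of 24 genes were lower by spike-in and 29.2% by TMM, against 5.36% and 17.3% of other starts. Windows with a peak also hold the more highly expressed genes, and the part of level or depth in these shares was not tested. Among matched promoters, those with the E-box had a WT peak in 80.0% (n = 70) and those without in 81.4% (n = 609).

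Hardly any divergent gene was called in the GCN5 line. By spike-in scaling edgeR called 0 of 1378, against 0.041% of all tested genes (0.0328% higher, 0.00821% lower). At an unadjusted p below 0.05 were 8 of 1378, and 111 of all 12187. By TMM these numbered 124 and 1177. The fitted spread between libraries (biological coefficient of variation) was 0.274 by spike-in and 0.089 by TMM, so 0 calls do not show that nothing responded. By TMM edgeR called 2, Hsf1 and Ahsa1, where 0.164% of all genes were called (0.0656% higher, 0.0985% lower). DESeq2, with its own scaling, also called 2. Without siControl LacZ replicate 2 the TMM count was 10, and without any 1 GCN5 library it was 1. Ahsa1 had 158, 145 and 150 against 116, 116 and 119 CPM, a change of -0.37 (adjusted p = 0.0166) that held in 6 of 12 fits without 1 library. The ratio changed in 2 of 606 pairs, Bop1/Hsf1 and Larp7/Zgrf1, beside 0.179% of all neighbouring pairs. The ratio of Zgrf1, a repair helicase, to Larp7, a 7SK RNA-binding protein, rose by 0.63 in the GCN5 line (SE 0.13, adjusted p = 0.0498) and by 0.83 in the LacZ line. The GCN5 call was lost in 11 of 12 fits without 1 library, all but the one without siControl LacZ replicate 2, and with no trend, no count filter or the replicate block. The difference between the lines was tested itself: by spike-in scaling 4 genes passed, 3 higher and 1 lower (0.394% of all tested genes, 0.172% and 0.222%), by TMM 307, where 22% of all genes passed. Without siHsf1 LacZ replicate 1 the spike-in count was 27, and without siControl LacZ replicate 2 it was 7. Of the 307, 198 had the higher change in the GCN5 line and 109 the lower, beside 11% and 11% of all genes. For the ratio it passed in 96 of 606 pairs (15.8%), against 20.8% of all neighbours. The GCN5 libraries were the shallower ones, and the part of depth in these counts was not tested.

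Some counts were not steady between libraries of 1 group. In 26 of 1378 genes of pairs (1.89%, against 1.17% of all tested) libraries of 1 group differed by more than 4-fold, with the highest at 10 CPM or more and 0.5 CPM added. Ranbp1, which binds the GTPase Ran, had 146, 103 and 2.10 CPM in siControl LacZ, and Ppp1ca, a phosphatase subunit, 7.00, 5.43 and 157. On chromosome 17 lie 12 of these genes and on chromosome 16 lie 5. The correlation of the 2 log2 changes in the GCN5 line was -0.23 by TMM over 606 pairs and 0.04 over the 593 without such a gene. In the LacZ line the same values were 0.18 and 0.22. By coordinates, 542 of the pairs' genes overlap another gene, and the strand setting of the counting was not given in the sources used here, so reads from overlapping partners cannot be told apart.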

How the data were processed

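Per the submitters' processing notes, reads were handled with HISAT2, Bowtie2, SEACR and DESeq2 on GRCm38/mm10; the sources used here give no versions, and no pooling or scaling of the peak lists. Gene counts and FPKM values were used as the authors deposited them, and peak maxima are the signal in the authors' deposited lists. edgeR 4.0.16 (quasi-likelihood, 4 group means, 12187 genes after a minimum count of 10) was scaled by the 23 of 92 ERCC transcripts at equal amount in both mixes (from knowledge of the product, not from a deposited file), and by TMM beside it. Ratios of 2 genes were tested with limma 3.58.1 (0.5 counts added). DESeq2 1.42.0 was an alternative, scaled by its default from the genes and not by spike-in RNA. All p-values are two-sided, with Benjamini-Hochberg adjustment over all genes or neighbouring pairs. Tests were also run on simulated counts with the same spread for all genes and changes placed only in well-expressed genes. Those runs do not show how the tests behave on genes as unsteady as some here. Members and lists were chosen with earlier results of these data known. Pairs named were those called in the same direction (ranked by size), in opposite directions or in the ratio (ranked by p-value), those with the highest peaks, and textbook pairs. Pairs ranked by size for falling or rising together had to have no overlap of siHsf1 and siControl LacZ libraries in either gene. That separation is therefore no evidence of its own. Spike-in alternatives, low-count filters, replicate blocks, peak rules and left-out libraries were tried. The 4 samples of the siMyc set were not analysed here. A further pair that the naming rule took is not reported here.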

Additional observations from a re-analysis of the deposited data

Results flagged for a closer look

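The response to siHsf1 differed between the LacZ and GCN5 lines, by the edgeR test of that difference with spike-in scaling, in 4 genes of divergent pairs. On the log2 scale, GCN5 minus LacZ, Ifit1 differed by -2.05 (SE 0.47, adjusted p = 0.00542), and by -2.35 by TMM (adjusted p = 1.4e-11). Reep6 differed by 2.80 (SE 0.58, adjusted p = 0.00085), and by 2.37 by TMM (adjusted p = 8.2e-06). Wdr46 differed by 4.24 (SE 0.79, adjusted p = 0.00022) but did not pass by TMM (adjusted p = 0.144), and its siControl LacZ libraries held 0.961, 11.1 and 1.48 CPM. Srp54b, which has near-identical copies, differed by 2.23 (SE 0.51, adjusted p = 0.00542) and did not pass by TMM (adjusted p = 0.150); its siControl LacZ libraries held 24.3, 38.7 and 6.31 CPM.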

How the results depend on the processing

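Genes called in the LacZ line by spike-in scaling numbered 96, against 69 with no low-count filter, 125 with all ERCC transcripts and 490 with the replicate block. They numbered 575 by TMM, 600 with block and TMM together and 498 by DESeq2. DESeq2 was scaled without spike-ins, so its counts here differ from the spike-in ones in scaling as well as in method. Leaving out 1 library gave 15 to 448 genes called by spike-in scaling, and by TMM 501 to 562. In the GCN5 line they numbered 0, against 2 by TMM, 2 by DESeq2, 1 with the block and 2 with block and TMM; without 1 library 0 to 2, and by TMM 1 to 10. For the difference between lines they numbered 4, against 307 by TMM, 229 by DESeq2, 92 with the block and 321 with block and TMM; without 1 library 4 to 27, and by TMM 225 to 314. Pairs called in 1 direction numbered 3, against 71 by TMM, 6 with all ERCC transcripts, 2 with no filter, 56 by DESeq2, 83 with the block, 76 with block and TMM and 5 with overlapping starts added; without 1 library 0 to 71, and by TMM 55 to 73.

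Ratios called in the LacZ line ranged from 168 to 217 without 1 library, and in the GCN5 line from 1 to 2, with 1 under no trend, no filter or the block. Windows with a peak fell from 79.8% to 76.6% (WT) and from 49.1% to 37.7% (CKO) with peaks at or above the median maximum, were 78.1% and 47.8% with at least 50% of the window covered, 82.0% and 50.3% with 250 bp added on each side, and 86.5% (WT) where both genes were tested. TMM fits without 1 library and overlapping starts were chosen after seeing the data. Same-numbered libraries correlated at -0.06 to 0.07, so the numbers were not taken as pairs. This check does not see a shift common to all genes, and the spike-in share was lowest in replicate 1 in each of the 4 groups. Whether the numbers mark matched libraries was not settled. Apart from settings with fewer genes or samples, the cause was not tested.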
